A study of Homo sapiens with 4 samples.

Results

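The 33 genes described here encode proteins of homologous recombination and of the Fanconi anemia pathway, together with the kinases that signal DNA damage and the mismatch protein MSH6. A gene was taken as a member when the array's probe-to-gene table gave its symbol, alone, for at least 1 probeset, and MRE11 was found under its older symbol MRE11A. All 33 were measured, out of 15719 genes tested. They were read by 730 probesets, each covering about 1 exon or part of one, and 711 of these passed a filter on low values. The samples are T-47D cells, a luminal breast cancer cell line that expresses hormone receptors, hybridised to exon arrays. Cells of 2 arrays received 200 nM of a mimic for the artificial microRNA p-27-5p, and cells of 2 arrays received a pre-miR negative control whose dose the labels do not give. Both groups were grown in DMEM with serum and transfected with the TurboFect reagent. The labels give no genotype change, no harvest time and no mimic sequence. Separate cultures are not stated for the replicates, so a p-value covers the spread among these 4 arrays alone, and that spread may be technical.

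Homologous recombination repairs a double-strand break by copying an intact sister chromatid, so it works mainly in S and G2 phase. The break ends are first trimmed to single strands, a recombinase is loaded on them by the BRCA proteins, and the joint molecules that form are later taken apart. The Fanconi pathway deals with crosslinks between the DNA strands: its core complex attaches ubiquitin to a pair of proteins, FANCD2 and FANCI, which then clamp onto the damaged DNA. Many of these genes are transcribed with the replication genes under E2F factors, and in breast tissue inherited loss of several of them predisposes to cancer.

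Each array gave a log2 value per probeset, and a gene's level is the mean log2 value of its passing probesets. Over all probesets, replicate arrays had r = 0.985 in the mimic group and r = 0.984 in the control group, and arrays of different groups had r of 0.966 to 0.973. A list of 13 measured liver and neuron genes served as background. Its highest level was 6.43 in the mimic group and 6.85 in the control group, both for SYT1. Above the highest level of their own group lay 27 of the 33 repair genes in the mimic group, against 26 in the control group. That bar differed between the groups: above 6.85 lay 25 genes in the mimic group, against 26 in the control group. The next highest background levels were 6.35 and 5.53, with 27 genes above in the mimic group and 33 in the control group. The 6 below 6.43 in the mimic group were FANCL, FANCB, FANCE, FANCC, XRCC2 and RAD54L. Of 11 measured luminal markers, 10 lay above 6.85 in both groups. Mean levels of the basal, fibroblast, leukocyte and endothelial lists lay between 4.90 and 6.08 on every array. Interferon-stimulated genes were far higher in the mimic arrays, with all 10 measured markers past the threshold and a median change, mimic minus control on the log2 scale, of 5.71. OAS2, IFIT2, IFIT3 and OAS1, all antiviral proteins, rose by 7.12, 6.79, 7.66 and 5.97 on the log2 scale (largest adjusted p = 0.000161).

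Recombination and Fanconi genes lay mostly lower in the mimic arrays, and none of them passed the test. The change, mimic minus control on the log2 scale, was below 0 for 27 of the 33 genes, against 49.7% of all genes tested, and its median was -0.27, against 0.00 for all genes. It ranged from -0.77 for FANCG to 0.34 for NBN. The 33 genes had a median control level of 7.94, against 6.60 for all genes. With only probesets at or above the table median, the median change was -0.28 for the 33 genes and -0.05 for all genes. The mimic arrays were both below the 2 control arrays for 20 of the 33 genes, where 29.5% of all genes had this. For 3 genes, NBN, RAD50 and ATR, both mimic arrays lay above both control arrays, where 20.5% of all genes did so. For the other 10 the arrays overlapped.

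With limma's test across all genes, 0 of the 33 had a Benjamini-Hochberg adjusted p under 0.05, where 2.31% of all genes did, 0.789% lower and 1.52% higher. At an unadjusted p under 0.05, 9 were lower and 0 higher, where 12.8% of all genes were lower and 7.65% higher. These 9 genes were FANCG, FANCE, EXO1, FANCD2, FANCM, CHEK1, BLM, MSH6 and XRCC2. At an adjusted p under 0.1, 3 genes were lower, FANCE, FANCG and EXO1, and none was higher, where 3.35% of all genes were lower and 2.88% higher. The count at an adjusted p under 0.05 was 6 without control replicate 1, where 4.5% of all genes were lower, and 0 without each of the other arrays. At an unadjusted p under 0.05, 3 genes were lower without mimic replicate 1, where 5.73% of all genes were, and 7 without mimic replicate 2, where 6.49% were. The count was 11 without control replicate 1, where 12.9% of all genes were lower, and 4 without control replicate 2, where 9.45% were.

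Replicate arrays of a group also differed across these genes. The median gene level was 7.36 on mimic replicate 1 and 7.64 on mimic replicate 2, against 7.84 on control replicate 1 and 8.03 on control replicate 2. Of the 33 genes, 29 were higher on mimic replicate 2 than on mimic replicate 1, where 50.6% of all genes were. In the control group 28 were higher on replicate 2 than on replicate 1, where 51.1% of all genes were. Gene by gene, the gap between replicates had a median of 0.18 in the mimic group and 0.21 in the control group, and the change between groups had a median size of 0.27. Leaving out mimic replicate 1 gave the 33 genes a median change of -0.15, and leaving out mimic replicate 2 gave -0.33. Leaving out control replicate 1 gave -0.31, and leaving out control replicate 2 gave -0.19. What set the replicates apart was not tested.

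Markers of cell identity were compared in the same way, each change being mimic minus control. Of 11 luminal markers 8 had a change below 0, with a median of -0.21, and 54.5% had both mimic arrays below both control arrays. TFF3, a secreted trefoil peptide, passed the threshold among them and fell by 0.99 on the log2 scale (adjusted p = 0.0417). The fibroblast list averaged 5.44 and 5.34 on the mimic arrays, against 5.14 and 4.90 on the control arrays, and FAP and LUM, its genes of smallest p, had changes of 0.77 and 0.80 (limma adjusted p = 0.0916 and 0.127). The background genes had a median change of 0.33, with 10 of 13 above 0, and GRIN2B and TAT, of smallest p, had changes of 0.57 and 0.53 (adjusted p = 0.114 and 0.139). Of 6 basal and 6 endothelial markers 5 each had a change above 0, and 5 of 7 leukocyte markers did, with none called. The genes of smallest p were TP63 at 0.78 and OXTR at -0.20 among basal markers (adjusted p = 0.0671 and 0.437). Among leukocyte markers they were CD14 at 0.46 and ITGAM at 0.20 (adjusted p = 0.182 and 0.413), and among endothelial markers CDH5 at 0.38 and PECAM1 at 0.26 (adjusted p = 0.21 and 0.463). The part of these lists in the results on repair genes was not tested.

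**Figure D1:**
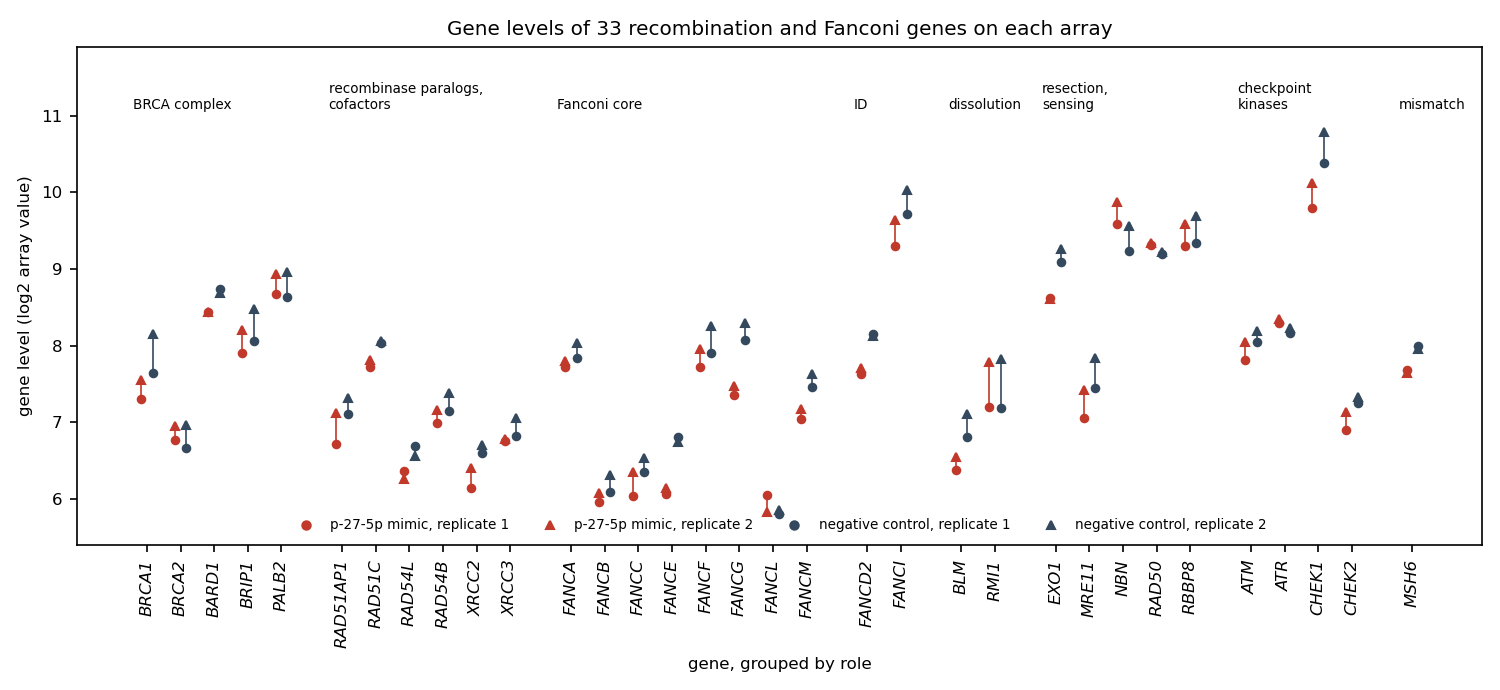
Gene levels (vertical axis, log2 array value) of the 33 genes, grouped by role along the horizontal axis. Red marks are the 2 mimic arrays, dark marks the 2 control arrays, circles replicate 1 and triangles replicate 2. Both mimic arrays lie below both control arrays for 20 genes, and 26 genes have the higher value on replicate 2 in both groups.

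**Figure D2:**
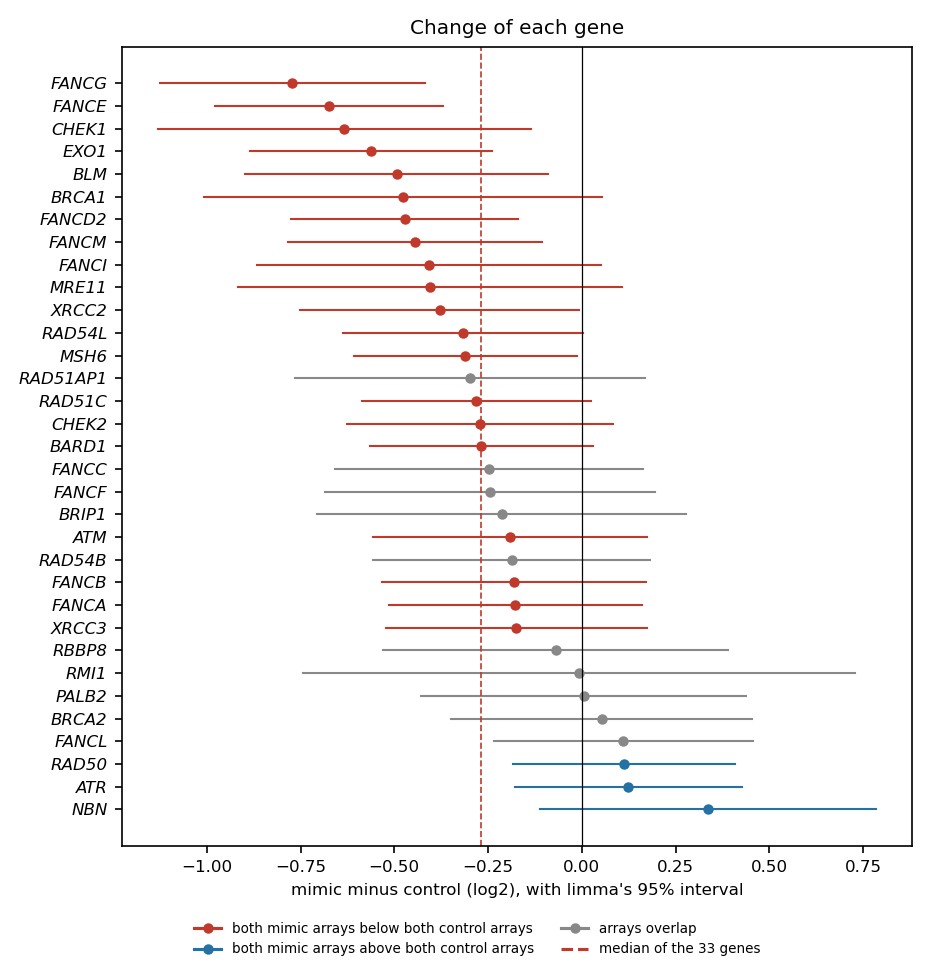
Change of each gene, mimic minus control on the log2 scale (horizontal axis), with limma's 95% interval as a line, ordered from FANCG at -0.77 to NBN at 0.34. Red genes have both mimic arrays below both control arrays, blue genes both above, and the dashed line is the median of the 33 genes, -0.27. The interval includes 0 for 24 genes.

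Because these genes are known to share regulation by E2F, their promoters were searched for E2F sites. RefSeq promoters of build GRCh38.p14, running from 250 bases before to 50 bases after an annotated start, were found for 30 of the 33 genes, 10 of them with several starts. The letters TTTGGCGC, TTTCGCGC, TTTGGCGG or TTTCCCGC were present, on either strand, in 5 of the 30 genes (16.7%). The same letters were present in 3.35% of all 35116 promoters in the table and in 5.77% of the 12587 tested genes that have a promoter there. The sequences below show each of the 6 matches with 20 bases on either side, read along the gene's strand, with the E2F letters or their reverse complement in capitals.
EXO1: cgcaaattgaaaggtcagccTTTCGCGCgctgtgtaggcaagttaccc
FANCD2: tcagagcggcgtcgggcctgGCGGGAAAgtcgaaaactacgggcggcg
MSH6: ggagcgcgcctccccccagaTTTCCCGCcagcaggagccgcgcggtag
XRCC2: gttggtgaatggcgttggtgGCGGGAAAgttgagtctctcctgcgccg
FANCC, upstream match: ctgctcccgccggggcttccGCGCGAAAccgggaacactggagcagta
FANCC, downstream match: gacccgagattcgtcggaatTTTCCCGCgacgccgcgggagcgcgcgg
These windows lie at chr1:241848188-241848235 (plus strand) for EXO1, chr3:10026415-10026462 (plus) for FANCD2, chr2:47783128-47783175 (plus) for MSH6 and chr7:152676093-152676140 (minus) for XRCC2. The FANCC windows lie at chr9:95317854-95317901 and chr9:95317728-95317775 (minus strand). Counted from the annotated start, the match of FANCD2 began 2 bases before it, that of MSH6 began 3, that of EXO1 began 4 and that of XRCC2 began 21 bases after it. The matches of FANCC began 172 and 46 bases before the start. For EXO1, MSH6 and FANCC, which have several annotated starts, the letters lay at 1 start only. Of the 5 genes with these letters, 4 had both mimic arrays below both control arrays, all but FANCC, and their median change was -0.38. Of the 25 genes without them, 15 did so, with a median change of -0.24.

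Other promoter motifs were searched in the same windows. The CCAAT box, with the letters CCAAT on either strand, was present in 16 of the 30 genes (53.3%) and in 42.9% of tested genes. TTTGAA, the letters of the cell cycle homology region that late cell cycle genes use, was present in 3 genes, BRIP1, FANCC and ATM (10%), and in 15.2% of tested genes. The interferon-type letters GAAANNGAA were present in 4 genes, BRCA1, RAD51AP1, FANCE and FANCM (13.3%), and in 8.94% of tested genes. In BRCA1 they lay at 1 annotated start (window chr17:43170278-43170577) and not at the other (window chr17:43125315-43125614). The median change with and without the CCAAT letters was -0.29 and -0.26, with and without TTTGAA it was -0.21 and -0.28, and with and without GAAANNGAA it was -0.46 and -0.25. A match describes the letters in the window and shows no binding.

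The Fanconi core complex held the largest changes of the set. It is the ubiquitin ligase of the pathway, and of its 8 genes 7 had a change below 0 and 3 an unadjusted p under 0.05, with a median of -0.25. FANCG, which holds FANCA in the complex, had levels of 7.36 and 7.47 in the mimic arrays, against 8.08 and 8.30 in the control arrays. The groups stood apart, and the change of -0.77 (SE 0.140, 95% interval -1.13 to -0.42) is a 1.71-fold lower level (limma adjusted p = 0.0657). In order from the largest decrease, FANCG stood at place 238 of 15719 genes. The gene passed the threshold without control replicate 1 (adjusted p = 0.00962) and missed it without each of the other 3 arrays, and its adjusted p ranged from 0.00732 to 0.337 over the alternatives.

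FANCE, the subunit that brings FANCD2 to the core complex, had 6.07 and 6.14 in the mimic arrays, against 6.81 and 6.75 in the control arrays. Its replicates differed by less than 0.1 in both groups, and its change was -0.67 (SE 0.120, 95% interval -0.98 to -0.37), with a limma adjusted p of 0.0634, the lowest of the 33 genes. The adjusted p ranged from 0.00906 to 0.367 over the alternatives and was 0.0441 without control replicate 1. FANCM, the DNA translocase that anchors the complex, had 7.04 and 7.17 in the mimic arrays, against 7.46 and 7.63 in the control arrays. Here too the groups did not overlap, with a change of -0.44 (SE 0.134) and an adjusted p of 0.158.

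The remaining core subunits had values nearer 0. FANCA, the binding partner of FANCG, had -0.18 and FANCB, an X-linked subunit, -0.18, both with the mimic arrays below the control arrays. FANCC and FANCF, which form a subcomplex with FANCE, had -0.25 and -0.24 with overlapping arrays. FANCL, which carries the ligase activity itself, had levels of 6.05 and 5.82 in the mimic arrays, against 5.80 and 5.85 in the control arrays. Its change of 0.11 (SE 0.136) lay within the spread of the mimic arrays.

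FANCD2 and FANCI, the pair that the core complex ubiquitinates, both lay lower in the mimic arrays. FANCD2, whose E2F letters lie at its start, had 7.63 and 7.71 in the mimic arrays, against 8.16 and 8.13 in the control arrays. The replicates of each group lay close together, and the change was -0.47 (SE 0.119, 95% interval -0.77 to -0.17), with an adjusted p of 0.118. FANCI had 9.30 and 9.64 in the mimic arrays, against 9.73 and 10.03 in the control arrays. Its highest mimic value lay just under its lowest control value, so the change of -0.41 (SE 0.181) was close in size to the gap between replicates (adjusted p = 0.29).

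Genes of the BRCA complex gave mixed values, and none of the 5 had an unadjusted p under 0.05. BRCA1, a ubiquitin ligase subunit that promotes resection and recombinase loading, had 7.30 and 7.55 in the mimic arrays, against 7.65 and 8.16 in the control arrays. The control arrays differed by more than the change of -0.48 (SE 0.210, adjusted p = 0.286). Without control replicate 1, the lower of the control arrays, the change was -0.73, and over the alternatives it ranged from -0.73 to -0.22. BARD1, the partner of BRCA1, had 8.44 on both mimic arrays, against 8.74 and 8.68 on the control arrays, a change of -0.27 (SE 0.118, adjusted p = 0.285). BRIP1, a helicase that binds BRCA1, had -0.21 (SE 0.195). PALB2, which links BRCA1 to BRCA2, and BRCA2, which loads the recombinase, had 0.00 (95% interval -0.43 to 0.44) and 0.05 (95% interval -0.35 to 0.45), with overlapping arrays.

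The recombinase paralogs and cofactors all had changes below 0, within a narrow range of -0.38 to -0.17 and with a median of -0.29. XRCC2, a paralog with E2F letters just after its start, had 6.14 and 6.40 in the mimic arrays, against 6.59 and 6.71 in the control arrays. Its groups did not overlap, and it alone of these 6 genes had an unadjusted p under 0.05 (change -0.38, SE 0.147, adjusted p = 0.236). The probesets of XRCC2 were uneven, from -1.46 to 0.28, with 4 of 7 below 0. Their median was -0.10, and the brightest had 0.04. RAD54L, a translocase that helps strand invasion, had 6.36 and 6.25 in the mimic arrays, against 6.68 and 6.56 in the control arrays, a change of -0.32 (SE 0.127, adjusted p = 0.249). RAD51C, a paralog needed for recombinase filaments, had 7.72 and 7.81, against 8.03 and 8.06, a change of -0.28 (SE 0.121). RAD51AP1, which stimulates strand pairing, had -0.30, the translocase RAD54B -0.19 and the paralog XRCC3 -0.17. The arrays of RAD51AP1 and RAD54B overlapped and those of XRCC3 did not.

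Nucleases and break sensors split by gene. EXO1, an exonuclease of resection and mismatch repair, had 8.62 and 8.61 in the mimic arrays, against 9.09 and 9.26 in the control arrays. The groups stood apart, with a change of -0.56 (SE 0.127, 95% interval -0.88 to -0.24) and an adjusted p of 0.099. Over the alternatives the change of EXO1 ranged from -0.65 to -0.14. Members of the break-sensing complex did not share a direction. MRE11, its nuclease, had 7.06 and 7.42 in the mimic arrays, against 7.45 and 7.84 in the control arrays, a change of -0.40 (SE 0.202, adjusted p = 0.34). NBN, its signalling subunit, had 9.59 and 9.88 in the mimic arrays, against 9.24 and 9.56 in the control arrays. Its lowest mimic value lay just above its highest control value, and its change of 0.34 (SE 0.177, adjusted p = 0.363) was the highest of the 33. RAD50, the ATPase of the complex, had 9.31 and 9.34 in the mimic arrays, against 9.20 and 9.22 in the control arrays, a change of 0.11 (SE 0.117). RBBP8, also called CtIP, which starts resection with MRE11, had -0.07 (SE 0.182) with overlapping arrays.

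BLM, the helicase that dissolves joint molecules, had 6.37 and 6.55 in the mimic arrays, against 6.80 and 7.11 in the control arrays. The groups did not overlap, and the change was -0.49 (SE 0.159, 95% interval -0.90 to -0.09), with an adjusted p of 0.177. Over the alternatives the change of BLM ranged from -0.65 to -0.12. RMI1, a scaffold protein of the BLM complex, had 7.20 and 7.79 in the mimic arrays, against 7.18 and 7.82 in the control arrays. Its replicates lay far apart in both groups, its change was -0.01 (SE 0.291), and the 95% interval of -0.74 to 0.73 leaves its direction unknown.

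Among the checkpoint kinases CHEK1 had the largest change. CHEK1, which restrains the cell cycle when replication stalls, had 9.79 and 10.12 in the mimic arrays, against 10.39 and 10.79 in the control arrays. The groups stood apart, the change was -0.63 (SE 0.197, 95% interval -1.13 to -0.14) and limma gave an adjusted p of 0.166. Over the alternatives the change of CHEK1 ranged from -0.83 to -0.43. ATR, the kinase that activates CHEK1, had 8.29 and 8.35 in the mimic arrays, against 8.16 and 8.23 in the control arrays, a change of 0.12 (SE 0.120, adjusted p = 0.616). ATM, which responds to double-strand breaks, had 7.81 and 8.04 in the mimic arrays, against 8.05 and 8.20 in the control arrays, a change of -0.19 (SE 0.144). CHEK2, the kinase downstream of ATM, had 6.89 and 7.14 in the mimic arrays, against 7.25 and 7.32 in the control arrays, a change of -0.27 (SE 0.140). MSH6, which recognises mispaired bases, had 7.68 and 7.64 in the mimic arrays, against 7.99 and 7.95 in the control arrays. Its groups stood apart, with a change of -0.31 (SE 0.118, adjusted p = 0.23).

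Single probesets show whether a change runs along a gene. The mimic arrays were both below the 2 control arrays on 257 of the 711 probesets (36.1%), where 27.1% of all 163774 probesets tested did so, and above them on 82 (11.5%), where 20.7% of all did so. The probesets of a gene share its RNA and the same 4 arrays and are not replicates. FANCG had the mimic arrays below the control arrays on 20 of 22 probesets, EXO1 on 15 of 17, CHEK1 on 11 of 13 and FANCM on 11 of 15. FANCI had 25 of 37, FANCD2 22 of 35 and FANCE 9 of 13. For CHEK1 all 13 probesets had a change below 0, in the narrow range of -0.85 to -0.43, and for BRCA1 all 22 did, from -1.14 to -0.01. In the other direction, ATR had the mimic arrays above the control arrays on 22 of 58 probesets, RAD50 on 12 of 31 and NBN on 8 of 18. FANCA had the mimic arrays below on 15 of 47 probesets and above on 2.

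Limma's test across all probesets called 1 of the 711, where 0.0946% of all probesets were lower and 0.823% higher at an adjusted p under 0.05. It is probeset 2904678 of FANCE, with 5.76 on both mimic arrays, against 7.61 and 7.52 on the control arrays, a change of -1.80 (SE 0.178) and an adjusted p of 0.0247. The probesets of FANCE were uneven, from that value to 0.61. The probeset did not pass when any of the 4 arrays was left out. With 4 arrays, a probeset that was not called is not shown to be unchanged. On the brightest probeset of a gene the changes were often smaller. EXO1 had -0.14 and BLM -0.12 there, against -0.56 and -0.49 on the mean of their probesets, while CHEK1 kept -0.62 and FANCG -0.56. The median over the 33 genes was -0.12 on the brightest probeset, with 14 genes whose mimic arrays lay below the control arrays, where 21.2% of all genes did so.

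**Figure D3:**
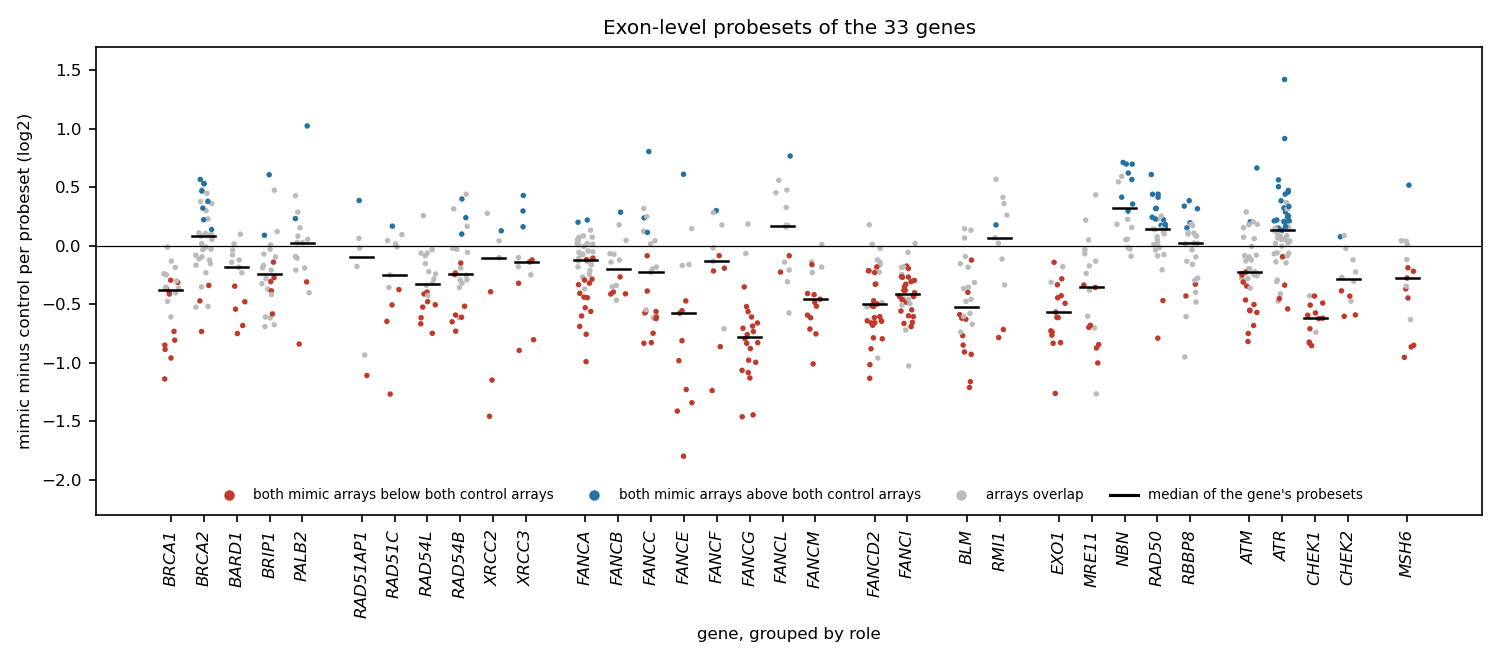
Change of each of the 711 probesets, mimic minus control on the log2 scale (vertical axis), by gene. Red points have both mimic arrays below both control arrays, blue points both above, and black bars are the median of a gene's probesets. FANCG has 20 of 22 red points and ATR 22 of 58 blue points.

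Other repair genes showed values of the same kind. Of 42 measured genes among the rest of recombination and the Fanconi pathway, limma called 0, while 9 were lower and 0 higher at an unadjusted p under 0.05. Their median change was -0.23, and 61.9% had both mimic arrays below both control arrays. ERCC1, a subunit of a nuclease that cuts at crosslinks, had -0.55 (limma adjusted p = 0.101). TONSL, which binds new chromatin at forks, had -0.45 (adjusted p = 0.124). UBE2T, the ubiquitin-conjugating enzyme that works with FANCL, had -0.30 (adjusted p = 0.249). Of 21 genes of checkpoint and damage signalling, limma called 0, with 7 lower at an unadjusted p under 0.05. Their median was -0.19. MDC1, the scaffold that binds marked chromatin at breaks, had -0.81 (adjusted p = 0.0552). RAD1, a subunit of the checkpoint clamp, had -0.87 (adjusted p = 0.08).

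Lists of the other repair pathways had medians between -0.20 and -0.08. Of 13 end joining genes, limma called 0, and at an unadjusted p under 0.05 there were 4 lower and 2 higher. Their median was -0.20. XRCC5, the large Ku subunit, had -0.53 (adjusted p = 0.102) and DCLRE1C, the nuclease Artemis, 0.65 (adjusted p = 0.114). Of 7 genes of mismatch repair, limma called 0 and 2 were lower at an unadjusted p under 0.05, the ligase LIG1 and the polymerase subunit POLD1, at -0.48 and -0.47. The 11 genes of nucleotide excision repair had a median of -0.08, with 27.3% of them below on both mimic arrays. DDB2 and DDB1, which find ultraviolet damage, had -0.58 and -0.44 there. Differences between these lists were not tested.

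The cell cycle lists lay lower as well. Of 20 S phase markers, 3 fell, the helicase subunit MCM6 by 0.93, GINS4 by 1.04 and GINS2 by 1.08 on the log2 scale (limma adjusted p = 0.0264, 0.0267 and 0.0327). Leaving out either mimic array ended these 3 calls, with adjusted p from 0.0958 to 0.172, as did the median or the brightest probeset (0.0629 to 0.3). The S phase median was -0.54, and 95% of its genes had both mimic arrays below both control arrays. The highest S phase change was 0.27, for the 1 gene with both mimic arrays above both control arrays. PCNA, the sliding clamp of replication, was counted in the mismatch repair list and had 0.04. Of 19 G2/M markers limma called 0, with 7 lower at an unadjusted p under 0.05 and a median of -0.30. CENPF and CENPE, of the kinetochore, had -0.46 and -0.40, and the proliferation marker MKI67 had -0.06. Among E2F factors and their partners limma called 0 of 17, with E2F1 at -0.62 (adjusted p = 0.106), E2F2 at -0.22, E2F3 at 0.57 (adjusted p = 0.0857) and MYBL2, an activator of late cell cycle genes, at -0.74 (adjusted p = 0.0637). In bulk RNA, fewer cells in S phase and less RNA of these genes per cell cannot be told apart.

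**Figure D4:**
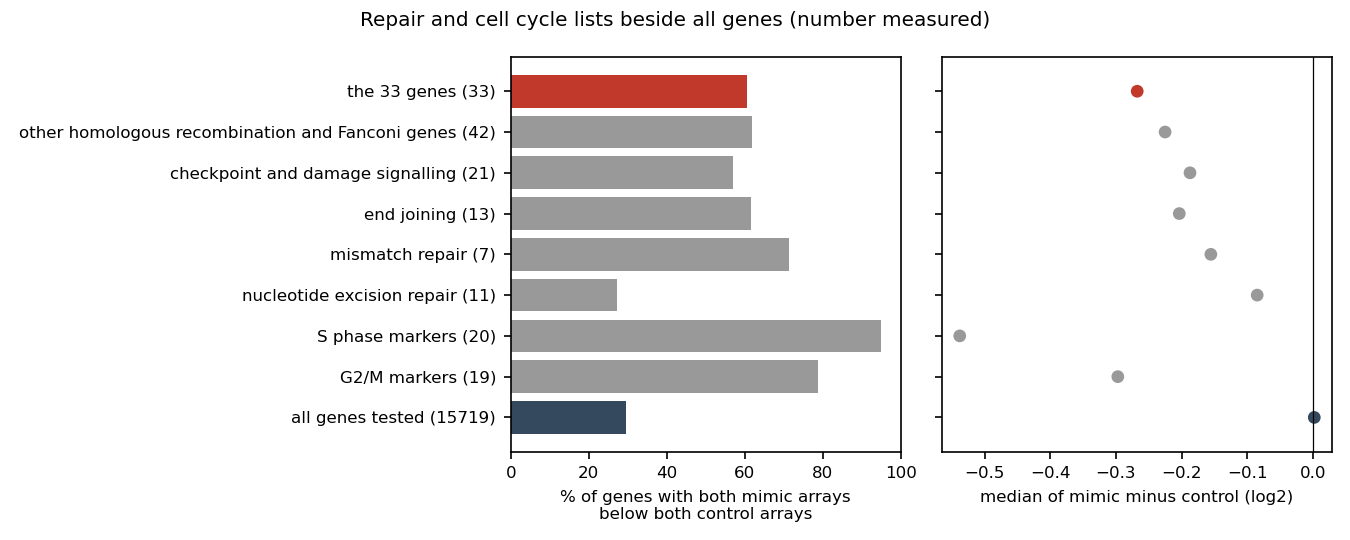
Left, the share of genes (horizontal axis, percent) with both mimic arrays below both control arrays, and right, the median change (log2, mimic minus control), for the 33 genes in red, 7 other lists in grey and all genes tested in dark blue. The share is 60.6% for the 33 genes, 95% for S phase markers and 29.5% for all genes.

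Calls among these genes depended on the processing. FANCG passed with quantile normalization (adjusted p = 0.0438), and FANCE with the stricter filter on dim probesets (adjusted p = 0.0406). With an intensity trend in the variance prior, FANCG, FANCE, EXO1, FANCD2 and CHEK1 passed, with adjusted p from 0.00826 to 0.0368, where 6.79% of all genes were lower. Their changes there were those of the fit without a trend. Of the 14 alternatives run, 10 can move a change, and the other 4 alter its test alone. Of the 33 genes, 20 kept the direction of their change in these 10 alternatives, and 13 turned in at least 1.

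**Figure D5:**
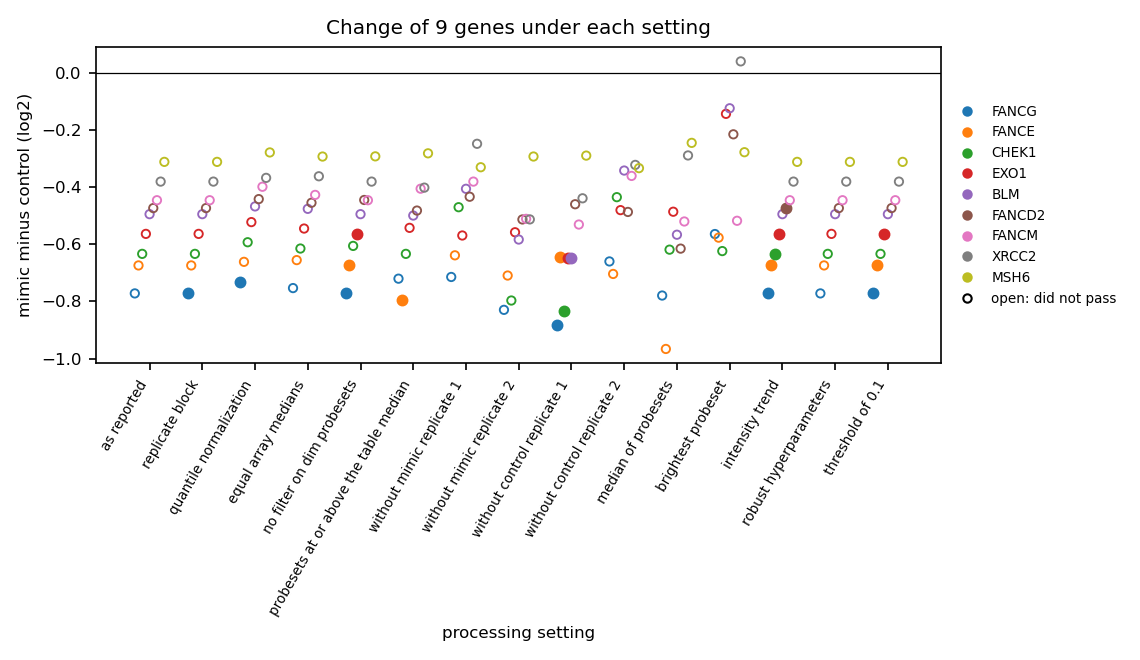
Change (vertical axis, log2, mimic minus control) of the 9 genes with an unadjusted p under 0.05, under each processing setting (horizontal axis). Filled points passed the threshold on the adjusted p, open points did not. FANCG and FANCE stay between -0.97 and -0.56 throughout, and the brightest probeset brings EXO1, BLM and XRCC2 nearest to 0.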

How the data were processed

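The authors deposited a log2 value for each of 232479 exon-level probesets on each array. Per the submitters' processing notes Partek, RMA and build hg18 were used; versions and order of steps are not given in the sources used here. Symbols came from GEO's platform annotation, updated through RefSeq: 216780 probesets carried 1 symbol, 2335 several and 13364 none. Probesets with a mean over the 4 arrays under the table's 25th percentile (4.08) were dropped. The groups were compared by limma (version 3.58.1, R 4.3.3), two-sided, with lmFit and eBayes, over all genes and, separately, over all probesets. P-values were adjusted by Benjamini-Hochberg, and genes under 0.05 were called. Residual degrees of freedom were 2, and 5.29 with the prior. Both fits were tested on simulated data with known changes. Noise was drawn independently for each gene and array, so the shared deviations of same-numbered arrays (r = 0.435) were not simulated. Of 100 changes each of log2 size 1, 3 and 6, the gene fit recovered 46, 93 and 99, with 11 false calls. The probeset fit recovered 0, 20 and 73 of 100 at these sizes, with 0 false calls. Changes as small as those of the repair genes were not simulated. A gene that was not called is therefore not shown to be unchanged. The number of arrays limits precision. SE is limma's moderated one. Promoter letters were matched exactly. Version 1.17.8 of the R package data.table and matplotlib 3.10.9 in Python 3.11.15 were used.

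The members and the other lists were chosen with earlier results of these data known. All 33 members are named. Of other lists, genes past the threshold (at most 4) or else the 2 with the smallest p are named, with E2F1, E2F2, E2F3, MYBL2, PCNA, MKI67 and UBE2T. Full values are given for members with an unadjusted p under 0.05 or past the threshold in an alternative. The others given in full were chosen after their values were seen. Genes of the lists with no value are not analysed here.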

Additional observations from a re-analysis of the deposited data

How the results depend on the processing

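The median change of the 33 genes lay below 0 under each alternative run. The number with both mimic arrays below both control arrays was 14 or more, but the share of all genes moved too. The count was 18 with probesets at or above the table median, where 34.6% of all genes did so. Without mimic replicate 1, mimic replicate 2 or control replicate 1 it was 20, 26 and 29, where 37.8%, 39.9% and 41% did. Fewer arrays separate more easily, so counts with an array left out do not compare with the count as reported. Calls depended on the setting. Of the 33 genes, those called at an adjusted p under 0.05 numbered 0 as reported, 1 with the replicate block, 1 with quantile normalization, 1 with probesets at or above the table median, 3 without a filter, 5 with an intensity trend and 3 at a threshold of 0.1, and from 0 to 6 with an array left out. All these calls were lower, and the shares of all genes called lower were 0.789%, 1.24%, 1.41%, 1.27%, 5.4%, 6.79% and 3.35% in that order. At an unadjusted p under 0.05, 17 of the 33 were lower with the replicate block, where 18.9% of all genes were, and 13 without a filter, where 14.8% were. Of 94 other repair genes, 0 were called as reported, 2 with the replicate block, 1 with quantile normalization, 11 of 95 (11.6%) without a filter, where 8.66% of all genes were called in either direction, 16 (17%) with an intensity trend, where 10.1% were, and 2 at a threshold of 0.1, and from 0 to 7 with an array left out. As reported, 0% of these 94 genes were called, against 2.31% of all genes in either direction. The shares were 2.13% against 3.17% with the replicate block, 1.06% against 3.4% with quantile normalization and 2.13% against 6.23% at a threshold of 0.1. The list thus lay below all genes in these settings, and above them without a filter and with an intensity trend. Of the 711 probesets, 1 was called as reported, where 0.0946% of all probesets were lower, and 0 with the replicate block, where 0.0464% were. At or above the table median 2 of 588 were called, both lower, where 0.351% of all probesets were. Counts were 10 with an intensity trend and 3 at a threshold of 0.1. Shares of all probesets in those 2 settings are not given here, so these counts are not read as particular to the 33 genes. The causes were not tested.

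The labels share replicate numbers between the groups but state no pairing, so the block is given here only. Deviations of same-numbered arrays from their group means correlated with r = 0.435 across genes. With the replicate block, FANCG passed (adjusted p = 0.049) and 498 genes were called in all, against 363. The total called was 1433 without a filter, 1594 with an intensity trend, 979 at a threshold of 0.1, 122 with the brightest probeset and from 172 to 1691 with an array left out.

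Over the 10 alternatives that can move a change, 28 of 330 pairs of a gene and an alternative turned the direction, all with an adjusted p of 0.275 or above. RMI1 had 0.0366 with quantile normalization, 0.0119 with equal array medians, 0.0642 with probesets at or above the table median and 0.15 with the median of probesets. FANCL had -0.11 with probesets at or above the table median, and PALB2 had -0.0795 with the median of probesets. With the brightest probeset BRCA2 had -0.47, BRIP1 0.0896, PALB2 -0.11, RAD51AP1 0.39, XRCC2 0.0422, XRCC3 0.30, FANCA 0.22, FANCC 0.0165, FANCL -0.21, RMI1 0.18, MRE11 0.0501, CHEK2 0.0877 and RBBP8 0.0157. With an array left out RMI1 ranged from -0.33 to 0.31, RBBP8 from -0.24 to 0.10, BRCA2 from -0.10 to 0.20, PALB2 from -0.15 to 0.16 and FANCL from -0.00212 to 0.22. No member was reversed by the other alternatives.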

Other observations

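The array also carries 31 probesets that name both ATM and NPAT, a histone gene activator that lies beside ATM, and that were used for neither gene. Their mean levels were 8.07 and 8.42 in the mimic arrays, against 8.34 and 8.68 in the control arrays, a change of -0.26 on the log2 scale with 26 of 31 below 0. No test was made of them.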
